A study of Homo sapiens with 6 samples.

Results

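Notch receptors and ligands are transmembrane proteins that signal between touching cells. A ligand of the Jagged or Delta-like family on one cell pulls on a receptor on its neighbour, an ADAM protease removes the outer part of the receptor, and γ-secretase then cuts within the membrane and frees the Notch intracellular domain. That domain enters the nucleus, joins RBPJ and a Mastermind protein, and turns on genes of the HES and HEY families and *NRARP*. In stratified squamous epithelium the pathway is known for its part in moving basal keratinocytes towards differentiation, and some receptor and ligand genes are themselves known targets of it.

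The genes described here were the 4 receptors *NOTCH1*, *NOTCH2*, *NOTCH3* and *NOTCH4*, the Jagged ligands *JAG1* and *JAG2*, and the Delta-like ligands *DLL1*, *DLL3* and *DLL4*. They were taken by their current symbols and made up 9 of the 58884 genes in the deposited counts. RNA was sequenced from HSC-4, an established human cell line derived from an oral squamous carcinoma, and the study asked how its transcripts respond when γ-secretase is inhibited. Of the 6 libraries, 3 came from cells given 50 μM DAPT, a γ-secretase inhibitor, for 24 h and 3 were controls, which by the study's methods received the vehicle DMSO for the same time. The headers of the control counts carry the letters GM, which are not explained, and if they stand for medium without DMSO, the effects of vehicle and inhibitor cannot be told apart. No source says that the replicates were separate cultures, so the p-values measure the spread between these libraries, which may be technical.

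Total counts per library lay between 12276313 and 16317672. At this depth, 3 reads, taken as the smallest signal, corresponded to 0.184 to 0.244 CPM (counts scaled to the size of the library), and this limit covers counting error only. All 10 squamous epithelium markers passed the filter on low counts, and 6 were lower with DAPT and 0 higher. Among all tested genes, 18.0% were lower and 17.2% higher, and the markers were not tested against that share. *KRT5*, the basal layer keratin, fell from a mean of 2700 to 1320 CPM, and *DSG3*, *PERP*, *ITGB4* and *LAMB3* did not pass the test. *KRT14*, the usual partner of *KRT5*, held 36 to 49 reads in the controls and 0 to 11 with DAPT. Control replicate 1 stood apart. Its 8 fibroblast markers summed to 569 CPM, against 57.7 and 58.5 CPM in the other controls and 50.1 to 55.6 CPM with DAPT, and all 8 had more reads there than in any other library. *COL1A2*, a fibrillar collagen chain, held 3452 reads in that library and 3 to 28 in the others, and *PDGFRA* held 221 against at most 2. The part of these transcripts in the values below was not tested, and values without that library are given beside the results.

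**Figure D1:**
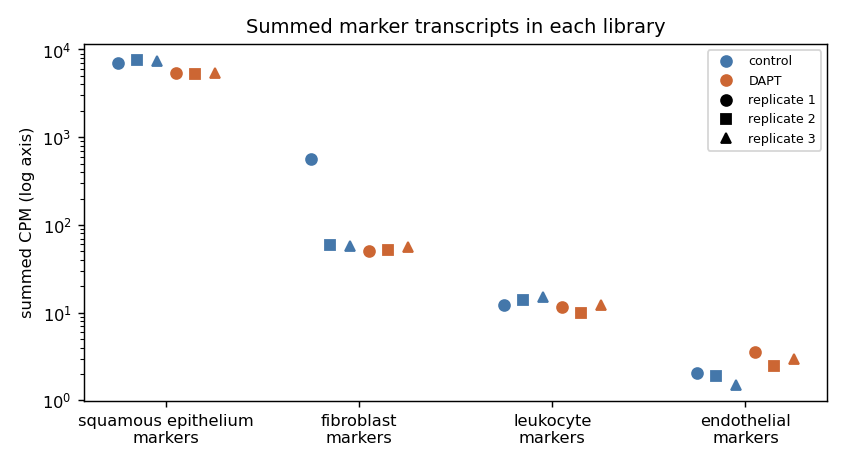
Summed CPM (y axis, log scale) of 4 fixed marker lists (x axis) in each library, with controls in blue, DAPT in orange and the replicate number as the symbol. The fibroblast list reaches 569 CPM in control replicate 1 and stays between 50.1 and 58.5 CPM in the other 5 libraries.

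Among the 9 genes, *NOTCH3* showed the main difference and fell with DAPT, *JAG2* and *JAG1* fell less, and *DLL1* was slightly higher. *NOTCH1* and *NOTCH2* did not pass the test, and *NOTCH4*, *DLL3* and *DLL4* had too few reads to be tested. Thus 6 of the 9 genes passed the filter on low counts. Of these 6, 3 were lower and 1 was higher when tested with the quasi-likelihood model of edgeR (Benjamini-Hochberg adjusted p-value under 0.05). Among all 15001 tested genes, 35.2% passed in either direction, 18.0% lower and 17.2% higher, and whether the share among the Notch genes differs from that of all genes was not tested. Without control replicate 1, 4 of the genes were lower and 0 were higher, against 37.1% of all tested genes in either direction, 19.1% lower and 18.0% higher. In that edgeR fit 0 of the 6 were higher at an unadjusted p under 0.05 too. With all libraries scaled by their size alone, without TMM factors, 2156 of all tested genes were lower and 3445 higher, in place of 2707 and 2574. In these bulk samples, fewer cells of a kind and less RNA per cell cannot be told apart.

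**Figure D2:**
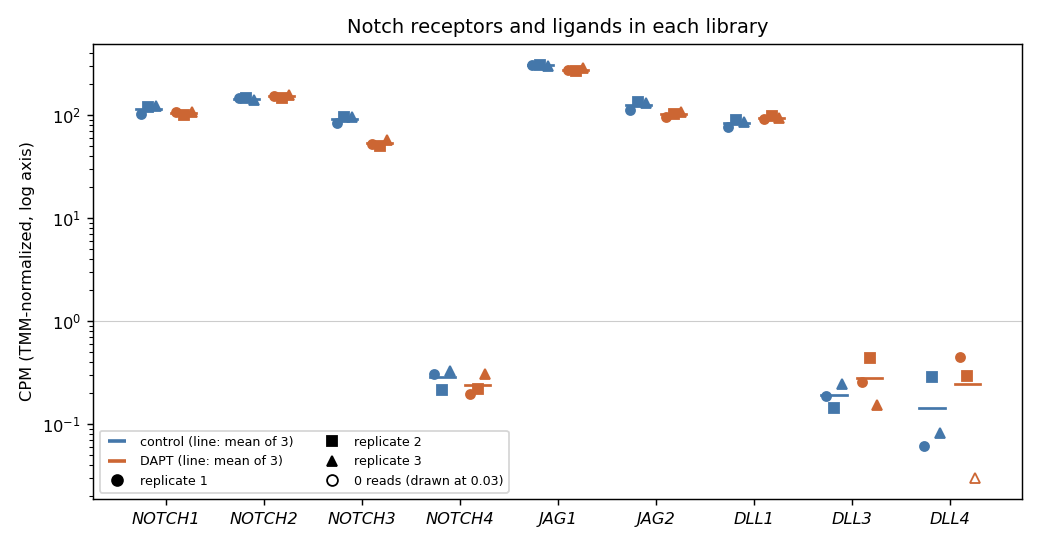
CPM after TMM normalization (y axis, log scale) of the 9 genes (x axis) in each control (blue) and DAPT (orange) library, with the replicate number as the symbol, the group mean as a line and 0 reads as an open symbol at 0.03. For *NOTCH3*, the DAPT libraries lie at 50.7 to 57.0 CPM and the controls at 83.3 to 97.1 CPM, while *NOTCH4*, *DLL3* and *DLL4* lie below 1 CPM throughout.

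*NOTCH3* (ENSG00000074181, GRCh38 chromosome 19, 15159038 to 15200995, minus strand) encodes a receptor best known from vascular smooth muscle and is also expressed by keratinocytes. It was at 83.3, 97.1 and 96.0 CPM in control replicates 1, 2 and 3 and at 52.6, 50.7 and 57.0 CPM in DAPT replicates 1, 2 and 3. All DAPT libraries lay below all controls, as in 22.7% of all tested genes, and the lowest control was replicate 1. The log2 fold change was -0.78 (standard error 0.065, 95% interval -0.92 to -0.65, adjusted p = 6.68e-09 from edgeR), so that the level fell by 41.9%. Of all tested genes, 3.13% had a lower log2 fold change. Without control replicate 1 it was -0.85 (adjusted p = 9.25e-12, edgeR), so the difference was at least as large without the library that held the fibroblast transcripts.

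*NOTCH1* (ENSG00000148400, chromosome 9, 136494433 to 136546048, minus strand) encodes a receptor with a known part in keratinocyte differentiation. It was at 102, 119 and 122 CPM in the controls and at 108, 99.4 and 107 CPM with DAPT. Control replicate 1 lay among the DAPT libraries, and the other controls lay above all of them. With all 6 libraries the log2 fold change was -0.12 (95% interval -0.25 to 0.01, adjusted p = 0.145, edgeR). Without control replicate 1 it was -0.20 and passed (adjusted p = 0.00312, edgeR), so the call for *NOTCH1* turned on that library. With an offset for GC content and length it was -0.070 (adjusted p = 0.232, edgeR).

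*NOTCH2* (ENSG00000134250, chromosome 1, 119911553 to 120100779, minus strand) encodes a receptor with wide expression. Its values were 146.8, 146.5 and 140.2 CPM in the controls and 154.7, 148.0 and 156.3 CPM with DAPT. The groups did not overlap, as in 46.3% of all tested genes (23.6% higher), but the gap was narrow. The log2 fold change was 0.08 (95% interval -0.02 to 0.19, adjusted p = 0.212, edgeR) and 0.09 without control replicate 1 (adjusted p = 0.132, edgeR). With the GC and length offset it was 0.043 (adjusted p = 0.461, edgeR). The human genome holds partial copies of this gene, *NOTCH2NLA*, *NOTCH2NLB*, *NOTCH2NLC* and *NOTCH2NLR*. Of the 75-base windows in the counted exons of *NOTCH2*, 17.9% also occur in exons of these copies, and reads that map to several places were not counted by default. The level of *NOTCH2* is therefore understated to an unknown extent, and the copies themselves held 0 to 8 reads in any library. For the other 8 genes, 0% of such windows occurred in the copies.

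*NOTCH4* (ENSG00000204301, chromosome 6, 32194843 to 32224067), a receptor known from endothelium, held 5, 3 and 4 reads in the controls and 3, 3 and 4 with DAPT. These counts are at or just above the smallest signal, and no difference could be measured at this depth. Of the 10 endothelial markers, 7 had at most 3 reads in every library, *PECAM1* among them. Only 2 of the markers were tested, and they differed in direction. *CDH5*, the endothelial cadherin, held 5, 7 and 2 reads in the controls and 36, 19 and 22 with DAPT. Its mean rose from 0.328 to 1.81 CPM (adjusted p = 4.93e-05, edgeR, and 0.000221 without control replicate 1). *VWF* had a log2 fold change of -0.44 and did not pass (adjusted p = 0.347, edgeR). *GPSM3*, on the same strand, shares 98 exon bases with *NOTCH4*.

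Of the ligands, *JAG1* (ENSG00000101384, chromosome 20, 10637684 to 10673999, minus strand) had the highest level. It was at 305, 309 and 302 CPM in the controls and 274, 269 and 284 CPM with DAPT. The groups did not overlap in CPM, as in 22.7% of all tested genes in this direction, and the controls lay close together. The log2 fold change was -0.15 (standard error 0.05, 95% interval -0.25 to -0.05, adjusted p = 0.0178, edgeR), and -0.15 also without control replicate 1 (adjusted p = 0.0112, edgeR). This small decrease lost its call with scaling by library size alone (-0.10, adjusted p = 0.0932, edgeR), without control replicate 2 (-0.14, adjusted p = 0.0684, edgeR) and without DAPT replicate 2 (-0.13, adjusted p = 0.0884, edgeR). ENSG00000270792, on the opposite strand, shares 79 exon bases with *JAG1* and held 0 to 3 reads.

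*JAG2* (ENSG00000184916, chromosome 14, 105140982 to 105168824, minus strand), the other Jagged ligand, was at 113, 134 and 131 CPM in the controls and at 95.9, 103 and 106 CPM with DAPT. The groups did not overlap in CPM, as in 22.7% of all tested genes in this direction, with control replicate 1 again the lowest control. The log2 fold change was -0.31 (standard error 0.06, 95% interval -0.44 to -0.18, adjusted p = 0.000638, edgeR), and -0.38 without control replicate 1 (adjusted p = 2.18e-06, edgeR). Another annotated gene on the same strand, ENSG00000257622, covers 7.33% of the counted exon bases of *JAG2*. Reads there were not assigned to either gene, and ENSG00000257622 had 0 reads in all 6 libraries.

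*DLL1* (ENSG00000198719, chromosome 6, 170282206 to 170306565, minus strand) encodes the Delta-like ligand that marks clusters of basal keratinocytes. It was at 76.9, 90.6 and 85.1 CPM in the controls and 90.9, 97.6 and 94.3 CPM with DAPT. The groups did not overlap, as in 23.6% of all tested genes in this direction, but DAPT replicate 1 and control replicate 2 nearly met. The log2 fold change was 0.16 (standard error 0.06, 95% interval 0.04 to 0.29, adjusted p = 0.0381, edgeR). Without control replicate 1, its lowest library, it was 0.10 and no longer passed (adjusted p = 0.151, edgeR). The call was also lost without control replicate 3, without DAPT replicate 2 or 3, and with DESeq2 (adjusted p = 0.0916), whereas the GC and length offset gave 0.25 (adjusted p = 0.000107, edgeR). *FAM120B* on the opposite strand covers 9.69% of the counted exon bases of *DLL1*. The file headers give the forward strand setting, while the kit named in the study's methods is usually counted with the reverse one. In each library 97.3% to 97.5% of counts fell in protein-coding genes.

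*DLL3* (ENSG00000090932, chromosome 19, 39498895 to 39508481), a divergent ligand known from neuroendocrine tumours, held 3, 2 and 3 reads in the controls and 4, 6 and 2 with DAPT. *DLL4* (ENSG00000128917, chromosome 15, 40929340 to 40939073), an endothelial ligand, held 1, 4 and 1 reads in the controls and 7, 4 and 0 with DAPT. For both genes the groups overlapped and lay near the smallest signal, so a difference was not detectable at this depth.

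**Figure D3:**
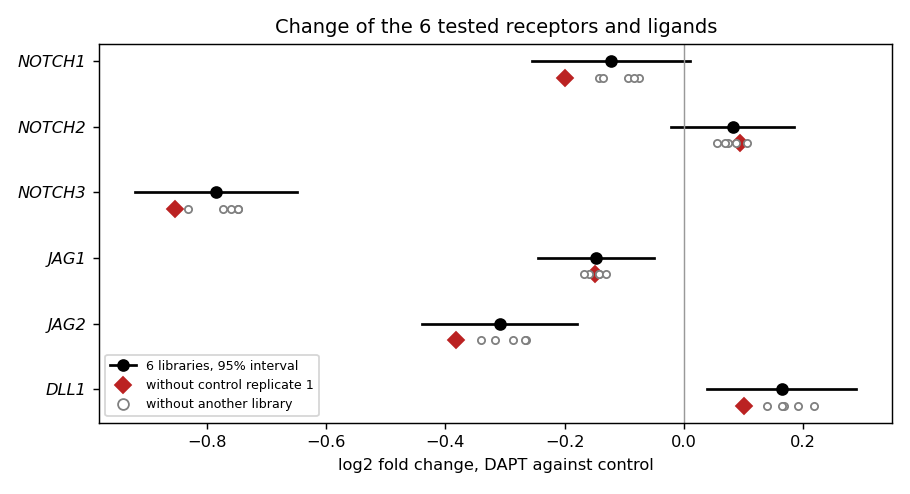
Log2 fold change of DAPT against control (x axis) for the 6 tested genes (y axis). Black points and bars are the fit of all 6 libraries with its 95% interval, red diamonds the fit without control replicate 1 and open circles the fits without one of the other libraries; *NOTCH3* lies between -0.85 and -0.75 in all fits that leave out a library, and the red diamond of *NOTCH1* moves away from 0 while that of *DLL1* moves towards it.

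Levels of different genes were compared per length, in TPM, which are reads per base of counted exon scaled to the same sum in each library. In the controls, *JAG1* was at 114 ± 0.527 TPM (SD, n = 3), *DLL1* at 76.8 ± 6.14 TPM and *JAG2* at 68.8 ± 6.13 TPM. The receptors were lower, with *NOTCH1* at 37.4 ± 3.74 TPM, *NOTCH3* at 34.1 ± 2.88 TPM and *NOTCH2* at 25.3 ± 0.462 TPM. The ranges of *DLL1* and *JAG2* overlapped, as did those of *NOTCH1* and *NOTCH3*, and other neighbours in this order were apart. With DAPT, *NOTCH3* at 21.2 ± 1.39 TPM was the lowest of the 3 receptors in every library, below *NOTCH2* at 28.7 ± 0.873 TPM and *NOTCH1* at 36.8 ± 1.63 TPM. *DLL1* at 92.3 ± 3.72 TPM lay above *JAG2* at 59.5 ± 3.54 TPM without overlap, and *JAG1* at 111 ± 3.57 TPM stayed first. TPM carry no TMM factors, and on this scale the groups overlapped for *JAG1* and *JAG2*, unlike in CPM. *JAG1* was at 114.0 to 115.1 TPM in the controls and 108.3 to 115.0 TPM with DAPT. *JAG2* was at 61.7 to 72.5 TPM and at 55.7 to 62.6 TPM. The groups of *NOTCH2*, *NOTCH3* and *DLL1* were apart in TPM too. The place of *NOTCH2* depends on the length used. Per base of the longest annotated transcript it was the highest receptor in both groups, at 33.9 TPM in the controls and 38.4 TPM with DAPT, and *NOTCH3* was the lowest in both, at 28.4 and 17.7 TPM. The order of the 3 ligands was the same with either length.

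The make-up of the receptor transcripts shifted away from *NOTCH3*. It held 34.3%, 35.7% and 35.5% of the summed receptor TPM in the controls and 23.8%, 24.3% and 25.2% with DAPT. The share of *NOTCH2* went from 24.5% to 28.6% in the controls to between 32.7% and 33.5% with DAPT, and that of *NOTCH1* from 37.0% to 39.9% to between 42.0% and 43.1%. Among the ligands, *DLL1* held 28.5% to 30.4% in the controls and 34.3% to 36.1% with DAPT, and *JAG2* held 25.1% to 27.2% and 21.9% to 23.1%. The share of *JAG1* overlapped between the groups, at 42.6% to 46.3% and 40.9% to 43.0%. Shares sum to a whole, so a lower share of one gene raises the others. Without control replicate 1 the share of *JAG1* still overlapped. The other shares were already apart, and leaving out a library could not make them overlap.

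**Figure D4:**
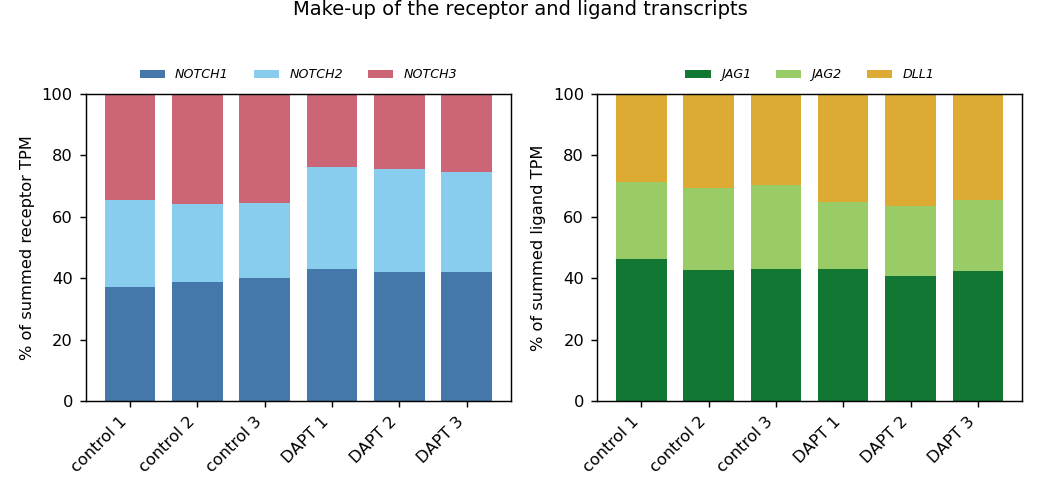
Share (y axis, percent) of each receptor in the summed receptor TPM (left) and of each ligand in the summed ligand TPM (right) in every library (x axis); *NOTCH4*, *DLL3* and *DLL4* are counted in the sums and too low to be seen. *NOTCH3* holds 34.3% to 35.7% in the controls and 23.8% to 25.2% with DAPT.

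Summed over the 4 receptors, the transcripts were at 89.8, 99.8 and 101 TPM in the controls and at 87.3, 83.0 and 90.4 TPM with DAPT. Control replicate 1 lay within the DAPT values, and the other controls lay above them. The 5 ligands summed to 246, 270 and 265 TPM and to 254, 265 and 271 TPM, with overlap. In TPM the ligand sum per receptor sum was 2.74, 2.71 and 2.62 in the controls and 2.91, 3.19 and 2.99 with DAPT, without overlap. The receptor sum was also apart without control replicate 1, at a mean of 100.5 TPM against 86.9 TPM with DAPT. The overlap of both sums depended on the scale, since TPM carry no TMM factors and weigh genes by length. In TMM-normalized CPM the receptors summed to 332, 363 and 359 in the controls and 315, 298 and 321 with DAPT. The ligands summed to 495, 534.5 and 519 CPM and to 461, 470 and 485 CPM, and both sums were lower with DAPT without overlap. The ligand sum per receptor sum, however, overlapped in CPM, with DAPT replicate 1 below control replicate 1. Its separation in TPM therefore depended on the weighing by length.

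Ratios within a library do not depend on the scaling between libraries. The 5 given here were chosen after the values had been seen, so their tests support nothing further. *NOTCH3* per *NOTCH1* was 0.926, 0.923 and 0.888 in the controls and 0.552, 0.577 and 0.601 with DAPT, a log2 difference of -0.66 (standard error 0.04). *NOTCH3* per *NOTCH2* differed by -0.87, *DLL1* per *JAG2* by 0.47 and *DLL1* per *JAG1* by 0.31 on the log2 scale. For these 4 ratios the groups did not overlap, and the exact two-sided permutation p was 0.1, the smallest that 3 against 3 libraries allow (0.125 after Benjamini-Hochberg adjustment over the 5). *JAG2* per *JAG1* was 0.541, 0.630 and 0.630 in the controls and 0.509, 0.556 and 0.545 with DAPT, with overlap, a log2 difference of -0.16 (standard error 0.083, exact permutation p = 0.3). *JAG2* per *JAG1* was apart without control replicate 1 (-0.23). The other 4 were already apart, and leaving out a library could not make them overlap. Their log2 differences were then -0.65, -0.95, 0.48 and 0.25 in the order given above.

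RBPJ binds DNA at a core of the letters TGGGAA, and this core was searched on both strands in RefSeq promoter windows of GRCh38.p14, from 250 bases before to 50 bases after the gene start. Of the 9 receptor and ligand genes, 7 had a window, and *DLL1* and *DLL3* had none and were not searched. The core was in 0 of these 7 windows and in 24.0% of all 35116 windows. Of 10 windows of HES, HEY and *NRARP* genes, 6 held it. These were *HES1*, *HES4* and *HEYL*, which fell with DAPT, and *HES3*, *HES5* and *HEY2*, which had too few reads to be tested. No match was found for *HES2*, *NRARP* and *HEY1*, which also fell. A window was found for 10 of the 11 genes, and which gene lacked it is not given here. A gene without a match may therefore not have been searched. No match says only that these letters are not in this window. The 100 bases before the start are shown for *NOTCH3* and *JAG1*, members that fell, and for *HES1*, a Notch target, with TGGGAA in capitals. The 2 matches of *HES1* are both on the forward strand. They are chr19:15200996-15201095 (minus strand), chr20:10674000-10674099 (minus strand) and chr3:194136048-194136147 (plus strand), written 5′ to 3′.
NOTCH3: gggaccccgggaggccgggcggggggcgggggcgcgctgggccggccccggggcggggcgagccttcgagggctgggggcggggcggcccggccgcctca
JAG1: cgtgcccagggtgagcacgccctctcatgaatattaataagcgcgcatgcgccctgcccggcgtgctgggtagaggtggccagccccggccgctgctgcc
HES1: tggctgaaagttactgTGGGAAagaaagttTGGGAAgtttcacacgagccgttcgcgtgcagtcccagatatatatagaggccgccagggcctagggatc
The *HES1* cores begin 84 and 70 bases before the start.

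By their pattern over the 6 libraries, the genes nearest to each called member were found among 12353 protein-coding genes, as the root-mean-square difference of log2 CPM centred on each gene's mean. For *NOTCH3* these were *SEMA6B*, a semaphorin (0.031), *MCM2*, a subunit of the replicative helicase (0.041), and *FSD1* (0.046). For *JAG2* they were *KIFC3*, *ECSIT* and *ARHGAP45*, at 0.020 to 0.025. For *JAG1* they were *VPS35*, a retromer subunit, *HSPD1*, a mitochondrial chaperonin, and *NDFIP2*, at 0.015 to 0.017. For *DLL1* they were *MIF4GD*, *EEIG1* and *NFKB2*, at 0.016 to 0.027. With 6 libraries in 2 groups, genes with similar changes with DAPT are near each other by construction. When control replicate 1 was left out, 2 of the 3 nearest genes of *NOTCH3* were shared with this list (*SEMA6B* and *FSD1*), 1 of *JAG2* (*KIFC3*) and 0 of *JAG1* and *DLL1*, so most of these neighbours changed without that library.

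The rest of the pathway was described with 76 further genes in lists by role. Of these, 64 were tested, of which 13 were lower and 13 higher (40.6% called, against 35.2% of all tested genes), with a median log2 fold change of 0.02 against 0.01 for all. In the fit that left out control replicate 1, 18 of 65 were lower and 13 higher, against 19.1% and 18.0% of all tested genes. Calls were then lost for *CCN3* and *KAT2B* and gained for *RBPJ* (0.23, adjusted p = 0.0036, edgeR), *APH1A*, *CIR1*, *DTX2*, *EGFL7*, *MIB2* and *SPEN*. The same 6 target genes were lower. The target genes stood at the low end. Of 7 tested, 6 were lower. These were *HES1* (-0.77), *HES4* (-1.48), *HEY1* (-1.98), *HES2* (-2.45), *HEYL* (-2.51, adjusted p = 0.00104, edgeR) and *NRARP*, a feedback inhibitor of the Notch complex (-1.43, adjusted p = 3.23e-11, edgeR), while *HES6* was at -0.069 (adjusted p = 0.787, edgeR). The log2 fold change of *NOTCH3* was near that of *HES1*, and the differences between these genes were not tested. *HES5* was not tested, with 17, 5 and 8 reads in the controls and 0, 1 and 1 with DAPT.

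The counts in the lists that follow stand beside 18.0% lower and 17.2% higher among all tested genes, and were not tested against these shares. Among ligands outside the Jagged and Delta-like families, 2 of 8 tested genes were lower and 2 higher. *MFAP2*, a microfibril protein, had a log2 fold change of -0.76 and *CNTN1*, a contactin, of -0.24, from 113 to 95.7 CPM, while *DNER* rose by 0.28 and *CCN3* by 0.21. *THBS2* held 205 reads in control replicate 1 and 9 to 20 in the others, and did not pass (adjusted p = 0.228, edgeR, and 0.17 without that library). Of the 9 proteases that process the receptor, 3 were higher and 1 lower. *NCSTN* (0.27), a subunit of γ-secretase, and *ADAM10* (0.13), the sheddase, were among those higher, and *FURIN* (-0.36), which cleaves the receptor on its way to the surface, was lower.

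Of 11 glycosyltransferases that act on the EGF repeats of the receptors, 1 was called, *GXYLT2* (-0.36), and the fringe gene *LFNG* was at 0.007 (adjusted p = 0.957, edgeR). Of 3 tested ubiquitin ligases for ligand endocytosis, *MIB1* was higher (0.14). Of 8 tested genes for receptor trafficking and turnover, *DTX3L* was higher (0.44). Against 17.2% higher and 18.0% lower among all tested genes, 4 of 9 in the nuclear complex were higher and 1 lower. They were the acetyltransferase genes *CREBBP* (0.48), *EP300* (0.33) and *KAT2B* (0.22), the coactivator *MAML1* (0.17) and, in the other direction, *KAT2A* (-0.21), while *RBPJ* itself was at 0.16 (adjusted p = 0.0522, edgeR). Of 9 corepressors, *NCOR1* (0.30) and *CTBP2* (0.18) were higher and *HDAC2* (-0.28) and *HDAC1* (-0.22) lower.

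**Figure D5:**
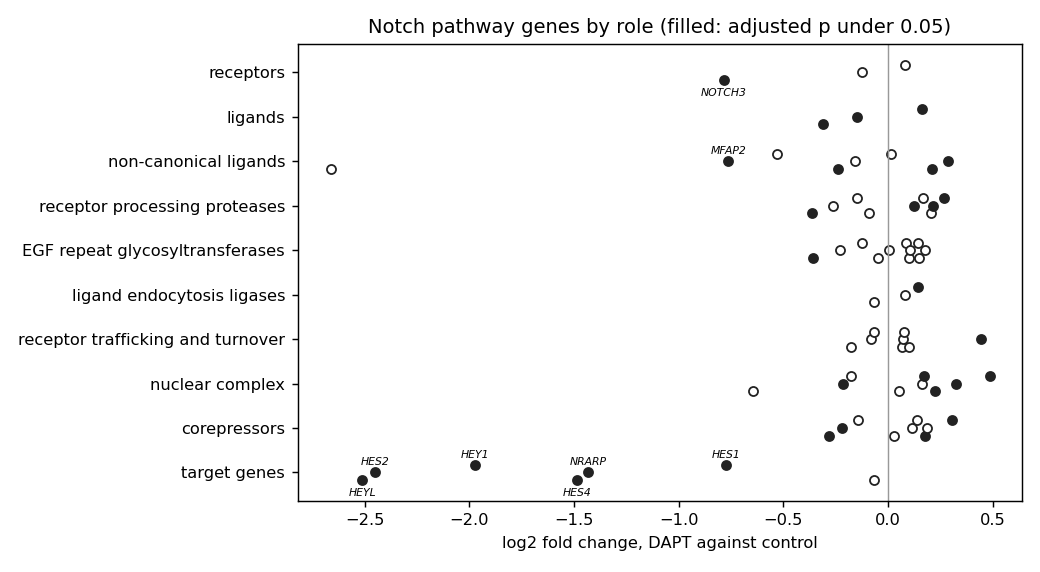
Log2 fold change of DAPT against control (x axis) for each tested gene of the lists by role (y axis), with filled points for an adjusted p-value under 0.05 and names for called genes beyond 0.7 in size. The 6 called target genes lie at -0.77 and below, *NOTCH3* lies beside *HES1*, and the 5 other tested receptors and ligands lie between -0.31 and 0.16.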

How the data were processed

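The authors made directional mRNA libraries, read from one end, and used Trim Galore for trimming and HISAT2 for mapping to GRCh38. The deposited files hold raw read counts per gene of Ensembl release 96, made by featureCounts 1.6.3 with the forward strand setting. The header's annotation folder and file name differ in release, and the file name was taken. The submitters' processing notes also name HTSeq and DESeq2. Groups and replicate numbers came from the sample titles. Symbols for 58472 genes, biotypes and transcript lengths came from GENCODE 44.

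Counts were filtered by group (minimum count 10), TMM-normalized and fitted with a robust quasi-likelihood model in edgeR 4.0.16 (R 4.3.3), with Benjamini-Hochberg adjustment over all 15001 tested genes. Standard errors were derived from the test statistic. The procedure was tested on simulated counts. Alternatives used DESeq2 1.42.0, limma-voom (limma 3.58.1), other scaling and filters, a fit that is not robust, a GC and length offset (splines with 5 degrees of freedom), each library left out, a replicate block and an adjusted p-value under 0.01.

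The members and lists were chosen with earlier results of these data known. Named were all 9 members, genes that share exon bases with a member, the 3 nearest patterns per called member, the tested target genes, and per pathway list up to 2 called genes in each direction with the largest changes. *ADAM10*, *KAT2B*, *MAML1*, *LFNG*, *RBPJ*, *HES5*, *THBS2*, genes that gained or lost a call without control replicate 1 and the marker genes were named after their values were seen. The result of 1 gene under this rule is not reported here.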

Additional observations from a re-analysis of the deposited data

How the results depend on the processing

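Of 220 recomputed values, 185 kept their call, or for counts lay within 1.5 times the value reported, or for levels within 1 SD. Only the log2 fold changes of members could reverse in sign, and 0 did. Levels and sums without control replicate 1 could not move by 1 SD, and levels in CPM differ from TPM in unit. The 185 of 220 is therefore no measure of how stable the results are. The decreases of *NOTCH3* and *JAG2* passed under every alternative. With single libraries left out, log2 fold changes ran from -0.85 to -0.75 for *NOTCH3*, -0.38 to -0.27 for *JAG2*, -0.17 to -0.13 for *JAG1*, -0.20 to -0.076 for *NOTCH1*, 0.06 to 0.11 for *NOTCH2* and 0.10 to 0.22 for *DLL1*. The members called lower then numbered 2 to 4 and those called higher 0 to 1, with 12 to 18 lower and 8 to 13 higher pathway genes, and 2190 to 2892 lower and 1901 to 2726 higher genes in all. DESeq2 gave 0.16 for *DLL1* without a call, hence 0 higher members (1 at an unadjusted p under 0.05), 8 higher pathway genes and 1646 higher genes in all. Library size alone gave 0.13 for *NOTCH2*, now called, -0.10 for *JAG1*, no longer called, and 2 higher members. An adjusted p-value under 0.01 left 0 higher members, 7 higher pathway genes and 1516 higher genes in all. The cause of these differences was not tested.

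The titles give both groups the replicate numbers 1 to 3. After subtracting group means, libraries that share a number correlated at 0.0173, 0.0252 and 0.00382 across 15001 genes, so the numbers were not taken to pair the libraries. The replicate block gave -0.78 for *NOTCH3*, -0.31 for *JAG2*, -0.15 for *JAG1* and 0.17 for *DLL1*, changed no call of a member and left 2737 lower and 2558 higher genes in all. With the GC and length offset, *DLL1* was at 0.25 with and without the block (adjusted p = 0.000133 and 0.000107).

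Without length, the control levels were 114 CPM for *NOTCH1*, 144.5 for *NOTCH2*, 92.1 for *NOTCH3*, 305 for *JAG1*, 126 for *JAG2* and 84.2 for *DLL1*. Per base of the longest transcript they were 31.0, 33.9, 28.4, 138, 58.5 and 59.6 TPM in the same order. Without control replicate 1, added after the data were seen, control means were 39.5 TPM for *NOTCH1*, 72.3 for *JAG2* and 80.2 for *DLL1*, and a mean of 3 cannot move by 1 SD in this way. Depth limits *NOTCH4*, *DLL3* and *DLL4*, at 0 to 7 reads per library.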
